A study of Homo sapiens with 14 samples.

Results

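The proteasome subunit genes were taken as the protein-coding genes of the deposited table whose symbol is PSMA, PSMB, PSMC, PSMD, PSME, PSMF or PSMG followed by a number. They numbered 48 of the 61541 genes in the table, and 47 of them were among the 18963 genes with enough counts to be tested. PSMB11, the catalytic subunit restricted to the thymic cortex, was the member that did not pass the filter on low counts. It had no reads in 7 of the 14 libraries and at most 0.0419 counts per 1000000 counts of a library (CPM) in the others.

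The proteasome degrades proteins that carry ubiquitin chains. Its 20S core is a barrel of stacked rings, in which the alpha subunits (PSMA) form the gate and the beta subunits (PSMB) line the chamber. PSMB5, PSMB6 and PSMB7 carry the proteolytic sites, and in lymphoid cells or under interferon gamma they can be replaced by PSMB8, PSMB9 and PSMB10, which makes an immunoproteasome. The 19S particle caps the core: its base holds the ATPases PSMC1 to PSMC6, which unfold the substrate, and its lid holds PSMD14, which removes the ubiquitin chain. PSME1 to PSME4 encode alternative caps that open the gate, PSMF1 encodes the inhibitor PI31, and the PSMG proteins help to assemble the core. In human cells, the transcription factor NFE2L1 (NRF1) raises the subunit genes together when proteasome activity falls.

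The libraries were made from polyadenylated RNA of Jurkat cells, a human T-cell acute lymphoblastic leukaemia line that expresses TAL1. KSR2 is a scaffold of the RAF-MEK-ERK kinase cascade, and the study targeted it with a small molecule and with guide RNAs. The inhibitor group (KSRi, n = 3) received APS-2-79, a compound known to hold KSR in an inactive state, and was compared with cells given its solvent DMSO (n = 3). The KSR2 guide 1 (n = 3) and KSR2 guide 2 (n = 3) groups were compared with a non-targeting guide (n = 2). The sample titles describe the guide groups as CRISPR knockouts, the series' design text names CRISPRi, and the library names of the non-targeting control say shRNA. The sources used here give no dose, exposure time, guide sequence or clonal origin of the cells. Nothing in the labels ties replicates to separate cultures, and the p-values cover only the spread among the deposited libraries.

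Library totals ranged from 21710466 to 45897075 counts. KSR2 averaged 0.541 CPM with guide 1 and 0.766 CPM with guide 2, against 29.5 CPM with the non-targeting guide. It averaged 34.3 CPM in KSRi cells and 37.0 CPM in DMSO cells, which did not pass edgeR's quasi-likelihood test with Benjamini-Hochberg adjustment (adjusted p = 0.276). All 8 T-cell markers were detected in every library, while CSF1R, HBB and EPCAM had no reads in any. KSRi replicate 1 stood apart from the other KSRi libraries. The chi-square per degree of freedom was taken over genes with at least 20 counts summed over the pair of libraries. It was 35.9 against KSRi replicate 2 and 49.9 against KSRi replicate 3, where every other replicate pair lay between 5.83 and 26.0. Counts for KSRi are therefore also given without that library, and so are single genes for which it mattered.

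Transcript levels differed widely among the subunits. Per kilobase of the principal transcript, PSME3, which encodes the nuclear activator PA28 gamma, had the highest level of the 48 genes, at a mean over the 5 groups of 228 CPM per kilobase. PSMA7 followed at 194 and PSMB4 at 187 CPM per kilobase. With the length of all annotated exons in place of the principal transcript, PSMA7 came first and PSME3 was placed 12, so the top of the order depended on the transcript model. At the low end, PSMD9 had 1.94, PSMB10 3.48, PSMA2 3.58, PSMA6 8.42 and PSMA1 10.8 CPM per kilobase. Each of these 5 genes shares exons with a second protein-coding gene annotated on the same strand, with which it can share reads, and no source used here gives the way the authors' counting treated such reads. Their levels are therefore uncertain. PSMA8, a testis-enriched alpha subunit, stood at 6.10 CPM per kilobase.

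**Figure D1:**
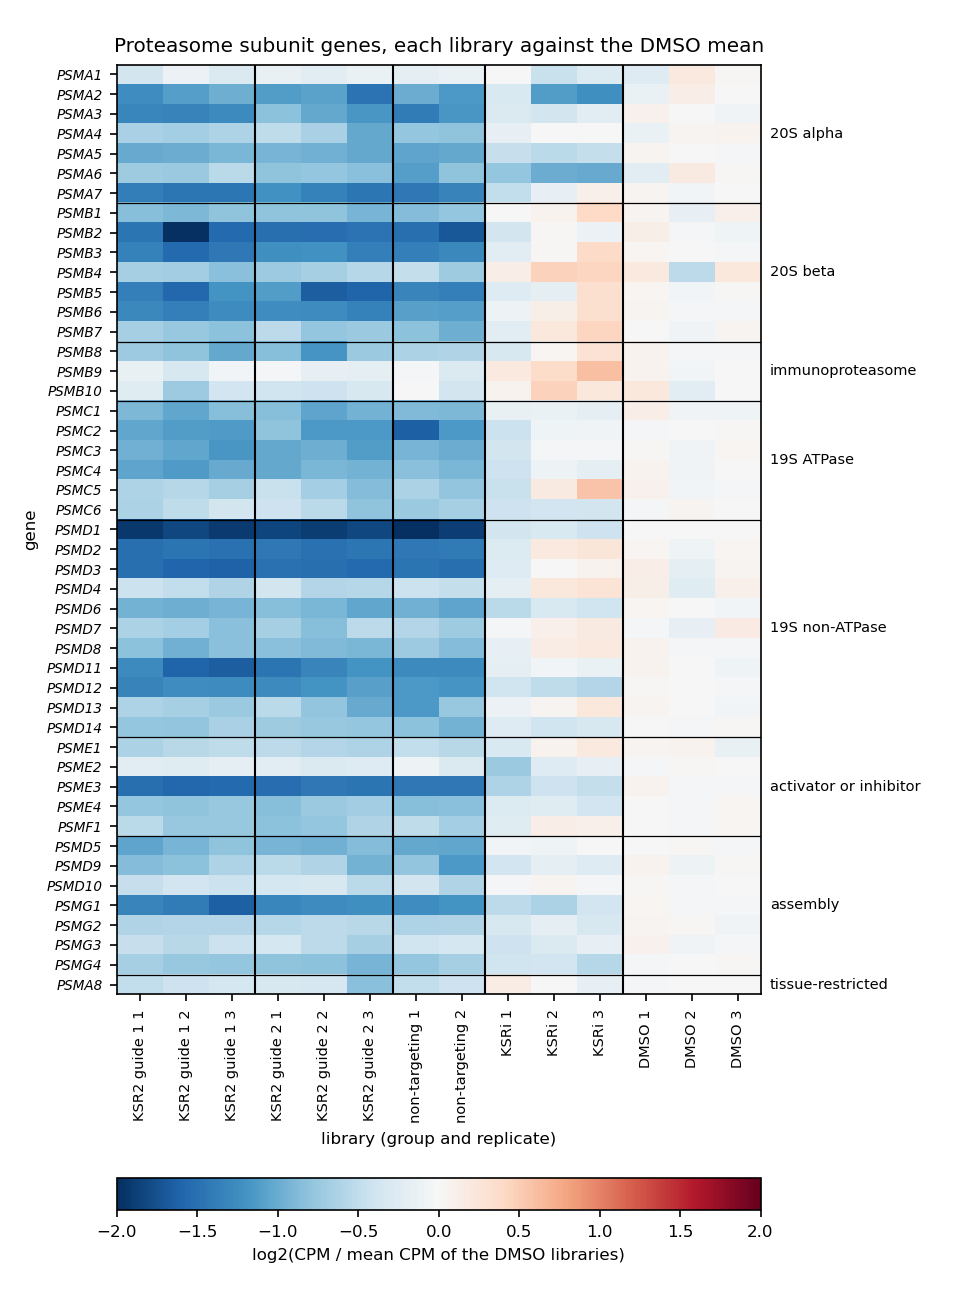
Heat map of the 47 tested proteasome genes (rows, by class) in the 14 libraries (columns, by group). Colour is the log2 ratio of the CPM in a library to the mean CPM of the 3 DMSO libraries, from -2 (blue) to 2 (red). The 8 libraries of the guide arm are blue over nearly the whole family, while the KSRi libraries lie close to DMSO.

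As a family, the proteasome genes made up 0.607% ± 0.0339 of all counts in KSRi cells and 0.664% ± 0.0108 in DMSO cells (SD, n = 3 each). They made up 0.399% ± 0.00502 with guide 1 and 0.403% ± 0.0188 with guide 2 (SD, n = 3 each), against 0.398% ± 0.00215 with the non-targeting guide (SD, n = 2). The summed level was 6086, 7106 and 7423 CPM in the KSRi libraries and 7638, 7145 and 7413 CPM in the DMSO libraries. These groups overlapped. In the non-targeting libraries it was 3703 and 3652 CPM, below every KSRi and DMSO library and within the range of the guide libraries, which spanned 3565 to 3864 CPM. In bulk RNA, a change in the share of cells that express a gene and a change in RNA per cell cannot be told apart.

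The promoters of 5 genes from the comparisons below are printed here, from RefSeq on GRCh38.p14, 5′ to 3′ on the gene's strand. All 5 carry the antioxidant core described below, which 13 of the 42 family promoters searched carry, so they do not stand for the family. PSMD1 had the lowest p of the family between the control groups, PSMD12 the lowest p of the 19S genes under KSRi, PSME1 and PSME2 encode the chains of 1 cap, of which PSME2 fell under KSRi, and PSMB9 was the member that rose. Capitals mark matches on either strand to the core of the antioxidant response element, TGACNNNGC, which NFE2L1 and NFE2L2 with small MAF proteins are known to bind. In PSME1 and PSME2 they also mark the core of the interferon-stimulated response element, TTTCNNTTTC. The windows are PSMD1 at chr2:231056617-231056916 (plus strand), PSMD12 at chr17:67366528-67366827 (minus strand), PSME1 at chr14:24135944-24136243 (plus strand), PSME2 at chr14:24146561-24146860 (minus strand) and PSMB9 at chr6:32853942-32854241 (plus strand).
PSMD1: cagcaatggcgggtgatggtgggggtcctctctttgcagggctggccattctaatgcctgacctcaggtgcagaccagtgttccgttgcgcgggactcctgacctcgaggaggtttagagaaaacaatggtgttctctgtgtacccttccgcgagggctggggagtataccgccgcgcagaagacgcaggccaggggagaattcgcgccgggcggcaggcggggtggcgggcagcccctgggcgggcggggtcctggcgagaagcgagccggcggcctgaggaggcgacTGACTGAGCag
PSMD12: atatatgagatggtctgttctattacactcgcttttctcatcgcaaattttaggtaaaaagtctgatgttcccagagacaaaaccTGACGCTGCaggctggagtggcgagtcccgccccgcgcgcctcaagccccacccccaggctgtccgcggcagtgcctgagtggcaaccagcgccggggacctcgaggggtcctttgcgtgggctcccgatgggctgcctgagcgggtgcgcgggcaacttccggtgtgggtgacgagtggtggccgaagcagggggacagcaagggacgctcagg
PSME1: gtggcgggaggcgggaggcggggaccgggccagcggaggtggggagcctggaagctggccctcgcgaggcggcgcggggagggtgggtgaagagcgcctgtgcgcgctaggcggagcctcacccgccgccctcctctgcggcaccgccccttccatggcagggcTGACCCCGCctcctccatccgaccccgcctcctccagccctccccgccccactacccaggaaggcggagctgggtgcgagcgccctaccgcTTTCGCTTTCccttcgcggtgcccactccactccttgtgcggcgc
PSME2: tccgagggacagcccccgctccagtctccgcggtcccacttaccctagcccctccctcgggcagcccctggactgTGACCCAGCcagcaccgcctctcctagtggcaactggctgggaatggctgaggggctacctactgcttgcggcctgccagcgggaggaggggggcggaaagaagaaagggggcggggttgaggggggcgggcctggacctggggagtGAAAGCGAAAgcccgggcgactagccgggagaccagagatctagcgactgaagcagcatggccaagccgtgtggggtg
PSMB9: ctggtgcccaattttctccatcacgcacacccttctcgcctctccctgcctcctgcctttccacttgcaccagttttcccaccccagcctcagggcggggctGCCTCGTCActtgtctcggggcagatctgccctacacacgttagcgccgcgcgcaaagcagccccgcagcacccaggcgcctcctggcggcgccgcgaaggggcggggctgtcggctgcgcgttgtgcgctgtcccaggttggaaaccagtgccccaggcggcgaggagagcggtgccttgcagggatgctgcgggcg

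The antioxidant core stood at bases 290 to 298 of the PSMD1 window, counted from its 5′ end, and at bases 86 to 94 of the PSMD12 window. In PSME1 it stood at bases 165 to 173 and the interferon core at bases 256 to 265. In PSME2 these stood at bases 76 to 84 and 223 to 232, and PSMB9 had the antioxidant core at bases 103 to 111. RefSeq windows of this kind were matched to 42 of the 48 genes. The antioxidant core occurred in 13 of them (31%), against 13.6% of 27305 promoters of all genes, and the interferon core in 6 (14.3%), against 3.65%. PSMB8 and PSMB9 had no interferon core in their windows. PSMA5 and PSME3, both among the clearest changes below, had no antioxidant core in theirs. A CCAAT box was found in 19 windows (45.2%, against 35.7%), the interferon gamma activated site TTCNNNGAA in 5 (11.9%, against 7.88%), and the heat shock element GAANNTTCNNGAA in 0 (against 0.487%). The antioxidant and interferon cores did not overlap in PSME1 or PSME2. The promoters of all genes were not matched to the family by gene type or GC content, so these shares do not measure an enrichment. A match of letters describes the sequence and does not show that a factor binds there.

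Under KSRi, 17 of the 47 tested genes fell and 1 rose relative to DMSO. Over all 18963 genes, 18.7% fell and 22% rose. The median log2 change was -0.14 for the proteasome genes and 0.02 for all genes. Changes were small: the 17 genes fell between 1.18-fold and 1.89-fold. The libraries of the KSRi and DMSO groups did not overlap for 20 genes lower and 1 gene higher, where 21.9% and 25% of all genes separated in those directions. The genes called were the same 18 with DESeq2. The 3 epithelial and stromal markers summed to 8.66 to 13.2 CPM in KSRi cells and 5.95 to 6.58 CPM in DMSO cells, nearly all of it COL1A1, while EPCAM was at 0 and COL1A2 at or under 0.0782 CPM in every library. The T-cell markers summed to 2644 to 3061 CPM in KSRi cells and 2451 to 2532 CPM in DMSO cells. The part of these shifts in the result was not tested.

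In the 20S core, the genes that fell all encode alpha subunits. Among the 7 alpha genes, 4 fell and the median log2 change was -0.29, while among the 7 constitutive beta genes 0 passed in edgeR's test or in DESeq2 (1, PSMB4, had an unadjusted p under 0.05) and the median was 0.12. Of all genes, 18.7% fell. Without KSRi replicate 1, 5 alpha genes fell and 4 constitutive beta genes rose, where 21.2% of all genes fell and 25.9% rose. The difference between the rings was not tested. PSMA5 had 185, 175 and 183 CPM in KSRi cells, against 265, 253 and 249 CPM in DMSO cells. The highest KSRi library lay below the lowest DMSO library, and the log2 change was -0.50 (SE 0.06, adjusted p = 5.32e-06). PSMA6 had 7.82, 6.71 and 6.61 CPM in KSRi cells, against 11.4, 15.1 and 13.5 CPM in DMSO cells, without overlap. Its log2 change was -0.92 (SE 0.11, adjusted p = 9.34e-06). PSMA2 had 7.35, 4.16 and 3.87 CPM in KSRi cells, against 8.21, 9.92 and 9.01 CPM in DMSO cells. KSRi replicate 1 lay close to the lowest DMSO library here, and the log2 change of -0.81 (SE 0.18) became -1.16 without that library. PSMA3, the remaining alpha gene that fell, did not pass without DMSO replicate 1 or without KSRi replicate 2. Both PSMA2 and PSMA6 belong to the 5 genes with shared exons. Without those 5 genes, 15 of 42 fell and 1 rose.

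**Figure D2:**
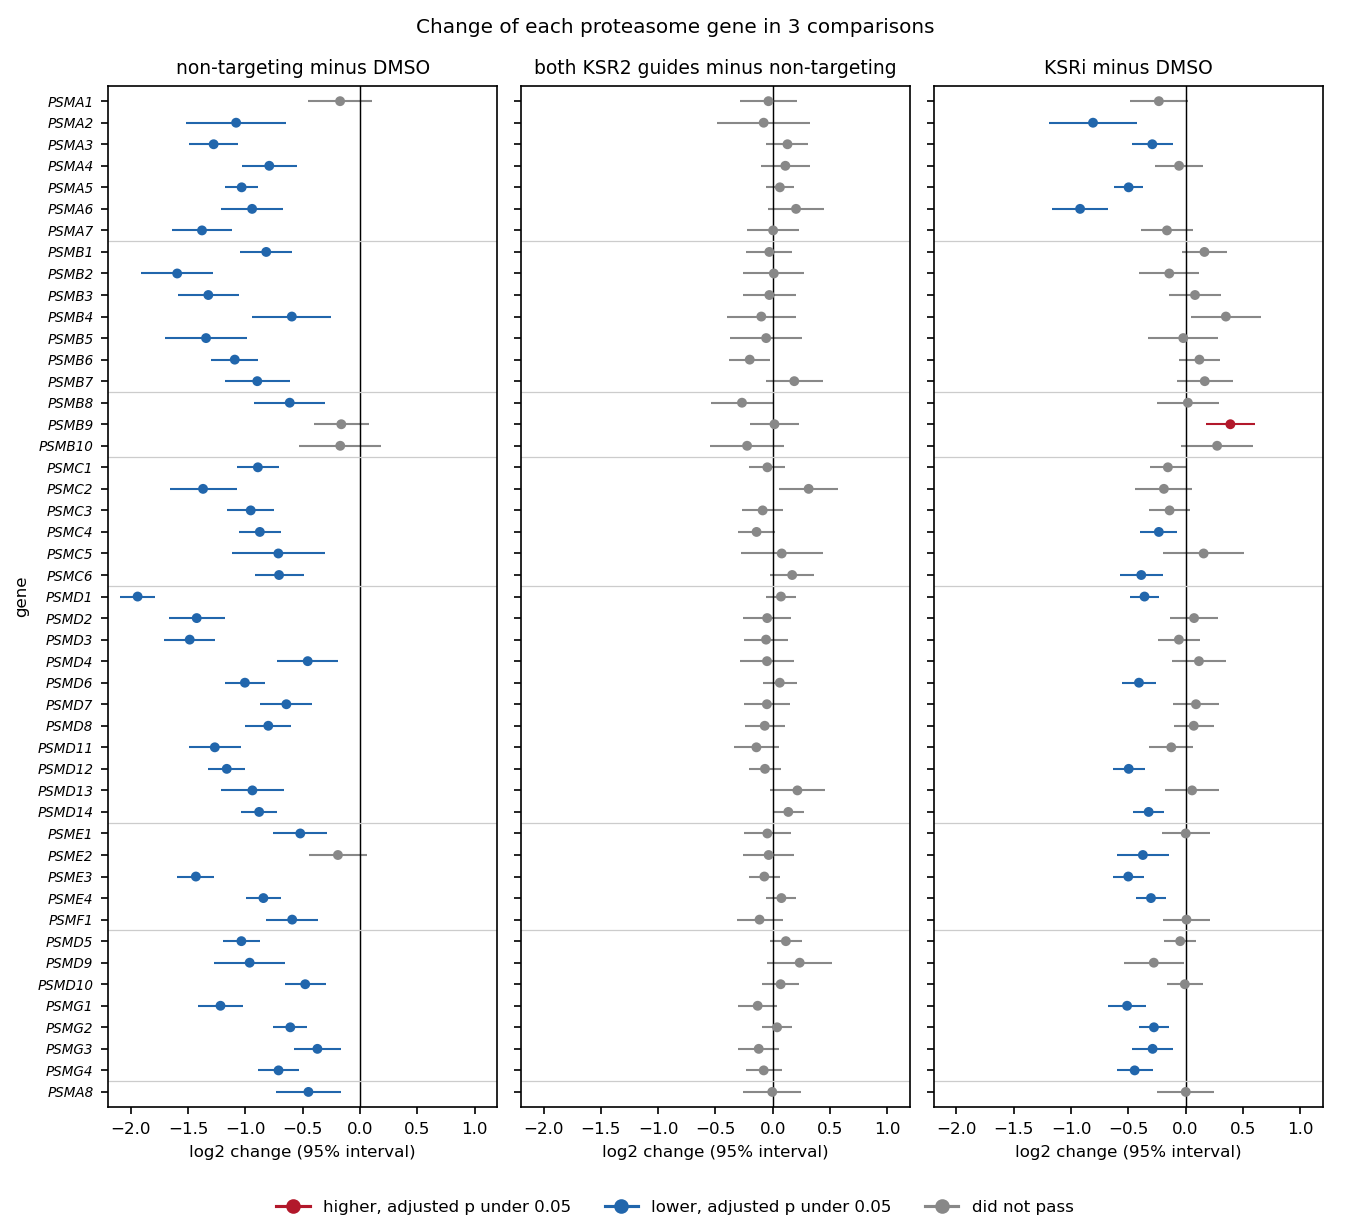
Log2 change of each tested proteasome gene (points) with its 95% interval (lines) in 3 comparisons, by class in the same order as the heat map. Blue and red mark genes that fell and rose at an adjusted p under 0.05 by edgeR, and grey those that did not pass. Non-targeting minus DMSO is blue for 43 genes, the guide comparison is grey throughout, and KSRi minus DMSO has 17 blue points and 1 red point.

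In the 19S particle, 6 of 17 genes fell, and with DESeq2 the genes called were the same. Of the base, 3 of 8 genes fell, and of the lid, 3 of 8, where 18.7% of all genes fell. Without KSRi replicate 1, 5 of the 17 fell and 4 rose, where 21.2% and 25.9% of all genes did. PSMD12, a scaffold subunit of the lid, had 124, 115 and 110 CPM in KSRi cells, against 166, 166 and 160 CPM in DMSO cells. The groups were far apart, with a log2 change of -0.50 (SE 0.07, adjusted p = 2e-05). PSMD6, another lid subunit, changed by -0.41 (SE 0.07) and PSMD14, the deubiquitinase, by -0.32 (SE 0.06). PSMD1, the large scaffold of the base, had 215, 225 and 207 CPM in KSRi cells, against 278, 279 and 274 CPM in DMSO cells. The log2 change of -0.36 (SE 0.06, adjusted p = 0.000174) came with no overlap. Of the ATPases, PSMC6 changed by -0.39 (SE 0.09) and PSMC4 by -0.23 (SE 0.08). PSMC4 did not pass without KSRi replicate 1 (adjusted p = 0.0602), nor without DMSO replicate 1 (adjusted p = 0.0853) or DMSO replicate 3 (adjusted p = 0.0547), and its adjusted p over all 13 alternatives ran from 0.00388 to 0.0853. PSMD2, the other scaffold of the base, and PSMD4, a ubiquitin receptor, did not pass, at 0.07 (SE 0.10) and 0.12 (SE 0.11).

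With all libraries, the catalytic subunits of the constitutive core did not pass. PSMB5, the chymotrypsin-like subunit, changed by -0.02 (SE 0.14, 95% interval -0.33 to 0.29), PSMB6, the caspase-like subunit, by 0.12 (SE 0.08), and PSMB7, the trypsin-like subunit, by 0.17 (SE 0.12). Without KSRi replicate 1, PSMB6 rose by 0.22 (SE 0.07, adjusted p = 0.0128) and PSMB7 by 0.32 (SE 0.08, adjusted p = 0.00281), while PSMB5 did not pass. PSMB9, the inducible counterpart of PSMB6, was the member that rose with all libraries. It had 40.7, 45.6 and 53.7 CPM in KSRi cells, against 37.1, 34.0 and 35.4 CPM in DMSO cells. Every KSRi library exceeded every DMSO library, and the log2 change was 0.39 (SE 0.10, adjusted p = 0.0055), or 0.48 without KSRi replicate 1. PSMB8 changed by 0.02 (SE 0.13) and PSMB10 by 0.28 (SE 0.15, adjusted p = 0.15), and neither passed, with or without KSRi replicate 1. PSMB8 and PSMB9 lie side by side on chromosome 6 on opposite strands. Their exons overlap by 139 bases and those of PSMB8 overlap PSMB8-AS1 by 618 bases. PSMB9 overlaps PSMB8-AS1 by 174 bases on the same strand, which a strand setting would not separate, and no source used here gives the strand setting of the counts.

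The ratio of each inducible subunit to its constitutive counterpart was computed within each library, as a log2 ratio of CPM. PSMB9 over PSMB6 was -1.09, -1.15 and -1.11 in KSRi cells, against -1.39, -1.42 and -1.37 in DMSO cells. The 3 KSRi libraries lay close together and all above DMSO, KSRi replicate 1 included. PSMB8 over PSMB5 averaged 0.31 ± 0.16 in KSRi cells and 0.27 ± 0.05 in DMSO cells, and PSMB10 over PSMB7 averaged -5.31 ± 0.28 in KSRi cells and -5.42 ± 0.19 in DMSO cells (SD, n = 3 each). Both of these ratios overlapped between the groups.

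**Figure D3:**
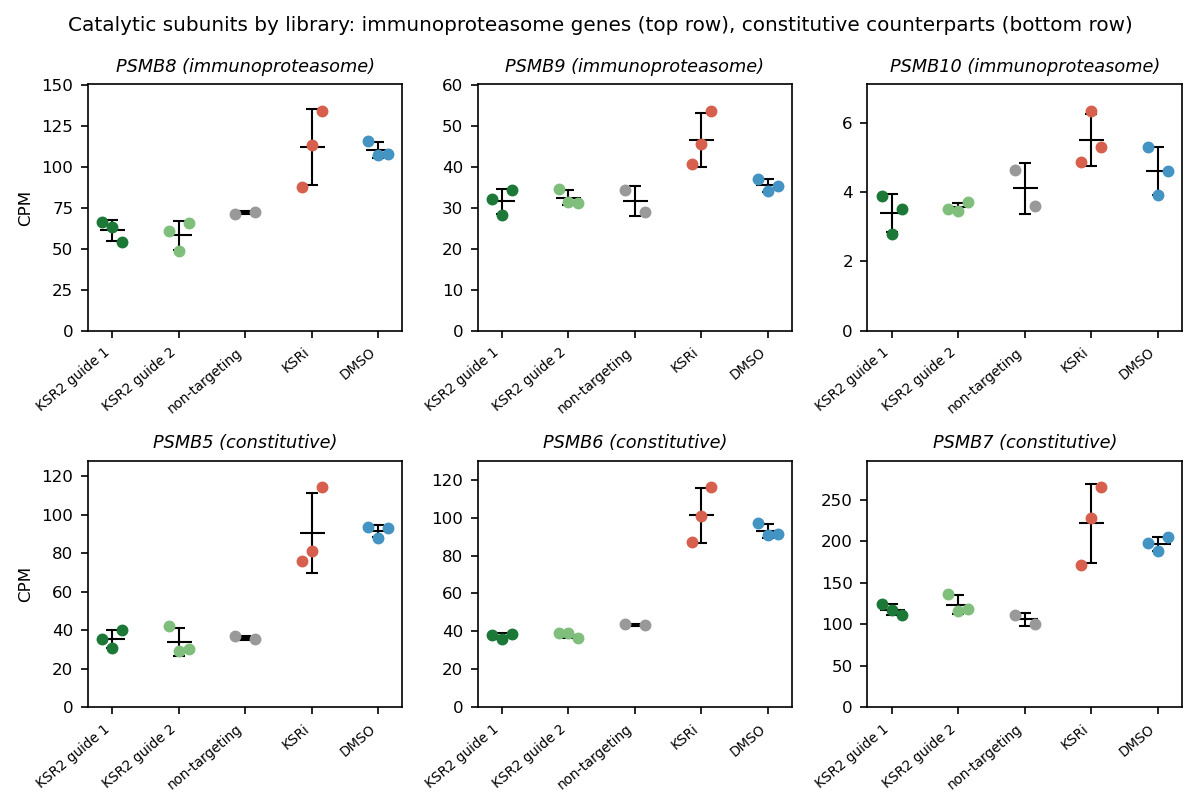
CPM of the inducible catalytic subunits (top row) and of the constitutive subunits they replace (bottom row) in each library, by group. Points are libraries, and black bars give the mean and SD of 2 or 3 libraries. PSMB9 averaged 46.7 CPM in KSRi cells and 35.5 CPM in DMSO cells, and PSMB6 averaged 37.6 CPM with guide 1, 38.3 CPM with guide 2 and 43.6 CPM with the non-targeting guide.

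Of the 5 genes for alternative caps and the inhibitor, 3 fell, by edgeR and by DESeq2, and 3 without KSRi replicate 1, where 18.7% of all genes fell with that library and 21.2% without it. PSME3 had 267, 307 and 293 CPM in KSRi cells, against 429, 400 and 398 CPM in DMSO cells. The groups were separated by a wide gap, with a log2 change of -0.50 (SE 0.06, adjusted p = 1.44e-05). PSME4, which encodes the nuclear activator PA200, changed by -0.30 (SE 0.06, adjusted p = 0.00096). PSME1 and PSME2 encode the alpha and beta chains of the interferon-inducible cap PA28. PSME2 had 49.7, 69.6 and 74.5 CPM in KSRi cells, against 82.4, 84.9 and 83.2 CPM in DMSO cells. It was lower in all 3 KSRi libraries, by a log2 change of -0.37 (SE 0.11, adjusted p = 0.0104), or -0.21 without KSRi replicate 1. PSME1 changed by 0.0015 (SE 0.10, 95% interval -0.21 to 0.21) and did not pass. The log2 ratio of PSME1 to PSME2 was 1.21, 1.09 and 1.13 in KSRi cells, against 0.85, 0.82 and 0.63 in DMSO cells, without overlap. PSMF1 changed by 0.0081 (SE 0.10) and did not pass.

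Assembly factors of the core fell as a complete set. All 4 PSMG genes passed: PSMG1 changed by -0.51 (SE 0.08), PSMG4 by -0.44 (SE 0.07), PSMG3 by -0.29 (SE 0.09) and PSMG2 by -0.28 (SE 0.06). PSMG3 did not pass without DMSO replicate 1, and all 4 fell without KSRi replicate 1. Of all genes, 18.7% fell with all libraries and 21.2% without KSRi replicate 1. PSMG1 had 62.8, 58.2 and 68.7 CPM in KSRi cells, against 92.9, 88.4 and 88.5 CPM in DMSO cells. The highest KSRi library remained well below the lowest DMSO library. The summed level of the 4 genes was 182, 185 and 192 CPM in KSRi cells, against 251, 240.3 and 238 CPM in DMSO cells, so that KSRi replicate 1 did not stand apart here. Of the chaperones of the 19S base, PSMD5, PSMD9 and PSMD10, 0 of 3 passed in edgeR's test or in DESeq2 (1, PSMD9, had an unadjusted p under 0.05). Exons of PSMG4 and PSMG2 overlap genes on the opposite strand over 13.3% (SLC22A23) and 13.9% (CEP76) of their length, and the strand setting is unknown here.

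KSRi replicate 1 decided how many genes rose. Without it, 9 genes rose and 17 fell, where 25.9% of all genes rose and 21.2% fell. The 8 genes gained on the higher side were the constitutive beta genes PSMB1, PSMB4, PSMB6 and PSMB7 together with PSMC5, PSMD2, PSMD4 and PSMD8. Their log2 changes without this library lay between 0.17 for PSMD8 and 0.45 for PSMB4. PSMC5, an ATPase of the base, shows the pattern: it had 111, 171 and 224 CPM in KSRi cells, against 161, 145 and 147 CPM in DMSO cells. KSRi replicate 1 was the lowest of these 6 libraries and the other KSRi libraries were the highest. Exons of PSMC5 overlap FTSJ3 on the opposite strand over 19.5% of their length, and the strand setting is unknown here. For PSMB4, DMSO replicate 2 also stood low: the gene had 236, 298 and 292 CPM in KSRi cells, against 246, 151 and 251 CPM in DMSO cells. On the lower side, PSMA1 was gained and PSMC4 was lost, and the other 16 genes were kept.

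**Figure D4:**
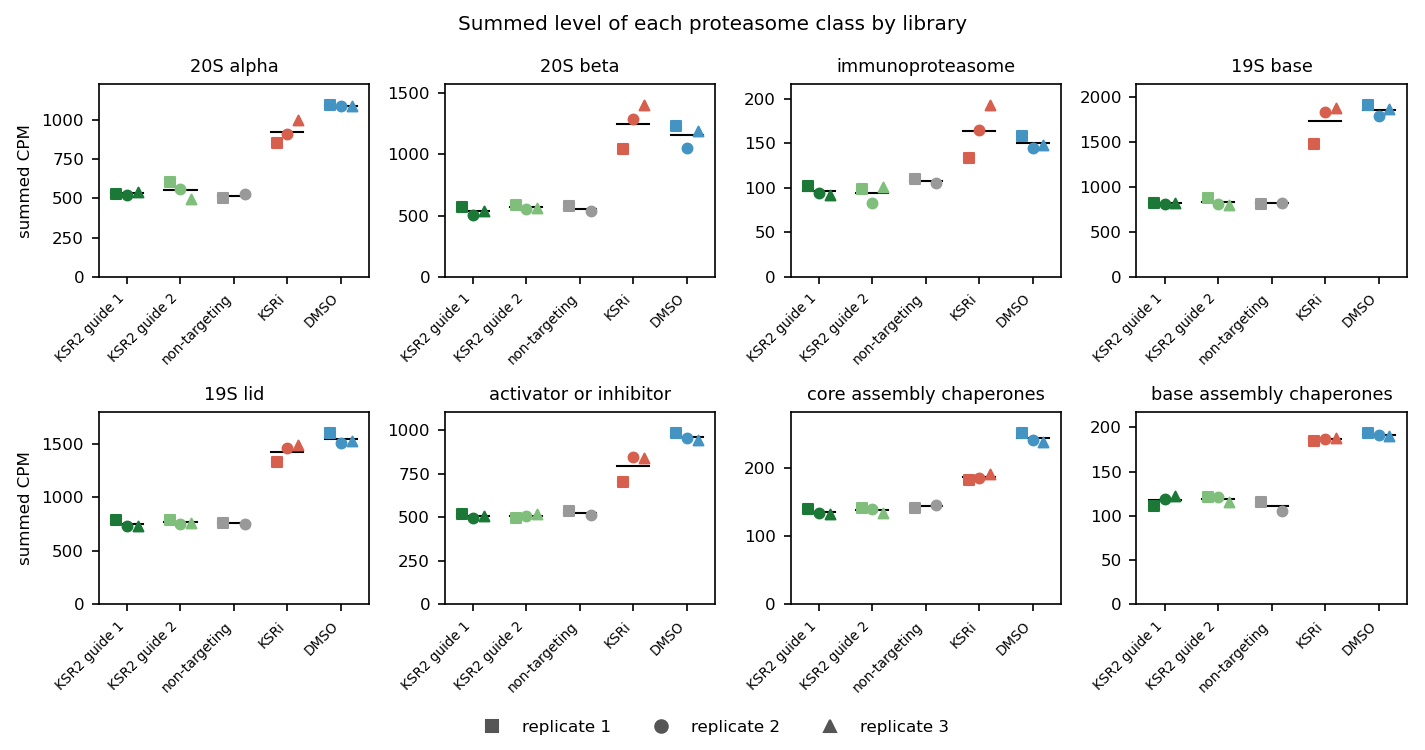
Summed CPM of each class of proteasome genes in each library, by group. Squares, circles and triangles are replicates 1, 2 and 3, and black lines are group means. KSRi replicate 1 is the lowest KSRi library for the beta genes, at 1048 CPM against 1287 and 1403 CPM in the others, but not apart for the core assembly chaperones.

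The guides that lowered KSR2 gave no call in the family. Of the 47 genes, 0 passed with guide 1, with guide 2 or with both guides together against the non-targeting guide, by edgeR or by DESeq2. An unadjusted p under 0.05 was reached by 6 genes with guide 1 (12.8%, against 4.64% of all genes), 2 with guide 2 (4.26%, against 3.6%) and 2 with both guides (4.26%, against 4.16%). Over all genes, 0.00527%, 0.0105% and 0.0158% were called, so that these comparisons called almost nothing outside the family either. For both guides together, the 95% interval of every tested proteasome gene lay within a change of 1.5-fold in either direction, from -0.54 at the lowest bound to 0.57 at the highest. That held for 46 of the 47 genes with guide 1 alone and for 44 with guide 2 alone. With both guides together, the 3 genes with the lowest p were PSMC2, an ATPase of the base, at 0.31 (SE 0.12), PSMB6 at -0.20 (SE 0.09) and PSMB8 at -0.27 (SE 0.13), each with an adjusted p of 0.989. PSMC2 had 91.9, 87.0 and 86.4 CPM with guide 1 and 108, 85.2 and 85.2 CPM with guide 2, against 60.5 and 85.2 CPM with the non-targeting guide. Non-targeting replicate 1 was the lowest of these libraries, and replicate 2 was level with the lowest guide libraries.

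With guide 1 alone the lowest p belonged to PSMG1, PSMC4 and PSMB6, at -0.22 (SE 0.09), -0.19 (SE 0.09) and -0.22 (SE 0.10), each with an adjusted p of 0.952. With guide 2 alone it belonged to PSMA3, PSMC2 and PSMB8, at 0.28 (SE 0.10), 0.35 (SE 0.13) and -0.30 (SE 0.14), each with an adjusted p of 0.9999. Between guide 2 and guide 1, 0 genes passed by edgeR or DESeq2, 2 had an unadjusted p under 0.05 (4.26%, against 3.24% of all genes), and 0.00527% of all genes were called. PSMA3, an alpha subunit, came closest: it had 120, 104 and 94.2 CPM with guide 2, against 84.9, 83.7 and 87.1 CPM with guide 1. Every guide 2 library was higher, but the log2 change of 0.31 (SE 0.09) had an adjusted p of 0.9999.

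The effect of KSRi relative to DMSO was then tested against the effect of the guides relative to the non-targeting guide. These 2 contrasts share no library. Their control groups differed from each other over most of the family, as given below. A difference between inhibitor and guides therefore cannot be told apart from one between the starting states of the cells. The KSRi and DMSO libraries are those of the comparison above, so the calls are not independent of it. The KSRi effect was lower than the guide effect for 16 of 47 genes and higher for 0 by edgeR and by DESeq2 (21, or 44.7%, had an unadjusted p under 0.05 in either direction, against 40.1% of all genes), where 12.1% and 16.6% of all genes differed in those directions. By p, PSMA6 came first with a difference of effects of -1.12 (SE 0.16, adjusted p = 0.000108) and PSMA5 followed with -0.56 (SE 0.08, adjusted p = 0.000134). PSMD14 differed by -0.46 (SE 0.09), PSMD1 by -0.43 (SE 0.09) and PSMD6 by -0.47 (SE 0.10). By class, these 16 were 4 of 7 alpha genes, 6 of 17 genes of the 19S particle, 4 of 7 assembly genes and 2 of 5 cap and inhibitor genes, against 0 of 7 constitutive beta genes (2 with an unadjusted p under 0.05). PSMA6 belongs to the 5 genes with shared exons, whose levels are uncertain. Without those 5 genes, the KSRi effect was lower for 13 of 42 genes and higher for 0. For PSMB9 the difference of 0.38 (SE 0.14) did not pass (adjusted p = 0.058). Without non-targeting replicate 1, 10 genes were lower, and without KSRi replicate 1, 7 genes were higher. The shares of all genes in these refits are not given here, so these counts are no result about the family.

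Of the comparisons made, the one between the control groups called the most proteasome genes. In cells with the non-targeting guide, 43 of the 47 genes were lower than in DMSO cells and 0 were higher, by edgeR and by DESeq2. Over all genes, 31.2% were lower and 34.6% were higher. The libraries of these groups did not overlap for 43 proteasome genes, all lower with the non-targeting guide, where 37.8% of all genes separated in that direction. A large part of all genes differed between the controls. The balance between lower and higher genes depends on how library totals were scaled, so no lean of all genes can be read from it. The median log2 difference was -0.89 for the proteasome genes and 0.04 for all genes, and all 47 values were negative. The summed family level was 2.01-fold higher in DMSO cells than in the non-targeting cells on normalised counts, and 1.67-fold higher as a share of all counts. The carriage of a guide, and any difference in handling or timing between the guide arm and the solvent arm, cannot be told apart in this design.

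PSMD1 differed most. It had 69.4 and 74.8 CPM with the non-targeting guide, against 278, 279 and 274 CPM in DMSO cells. That is a 3.84-fold difference (log2 -1.94, SE 0.07, adjusted p = 1.99e-12) with hardly any spread on either side. PSME3 had 151 and 152 CPM with the non-targeting guide, against 429, 400 and 398 CPM in DMSO cells (log2 -1.43, SE 0.08). PSMD3, a lid subunit, had 62.6 and 60.3 CPM with the non-targeting guide, against 189, 150 and 178 CPM in DMSO cells (log2 -1.49, SE 0.10). No library of either group entered the range of the other for these genes. PSMD12 differed by -1.16 (SE 0.08) and PSMA5 by -1.03 (SE 0.07). All 17 genes of the 19S particle, all 7 constitutive beta genes and all 7 assembly genes were lower with the non-targeting guide, with medians of -0.94, -1.09 and -0.71.

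The 4 genes that did not pass between the controls were PSMA1, PSMB9, PSMB10 and PSME2. PSMB9 differed by -0.16 (SE 0.11, adjusted p = 0.22), PSMB10 by -0.17 (SE 0.17), PSME2 by -0.19 (SE 0.12) and PSMA1 by -0.17 (SE 0.13). PSMB9, PSMB10 and PSME2 are known interferon-inducible members, and the others of that kind, PSMB8 and PSME1, were lower by -0.61 (SE 0.15) and -0.52 (SE 0.11). The log2 ratio of PSMB9 to PSMB6 was -0.36 and -0.57 with the non-targeting guide, against -1.39, -1.42 and -1.37 in DMSO cells, and that of PSMB8 to PSMB5 was 0.96 and 1.04 with the non-targeting guide, against 0.31, 0.29 and 0.21 in DMSO cells. Neither ratio overlapped between the controls. The non-targeting libraries were not unusual within their arm. For 37 of the 47 genes every library of the guide arm lay below every KSRi and DMSO library, where 23.4% of all genes did so, and 0 genes showed the reverse, where 23.7% of all genes did. This separation was looked for after the values had been seen.

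Measures other than the proteasome also moved with the arm. The factors that scale library totals lay between 1.07 and 1.11 in the guide arm and between 0.858 and 0.936 in the KSRi and DMSO libraries. With library totals left unscaled, the median over all genes shifted to 0.31 and that of the proteasome genes to -0.62. Scaling factors move the log2 changes of all genes by about the same amount. The gap between these medians, -0.93 under either scaling, was therefore fixed by construction and is no check of the difference. The B-cell markers CD79A, MS4A1 and CD22 summed to 46.8 to 67.9 CPM with the non-targeting guide, against 21.8 to 23.0 CPM in DMSO cells. Nearly all of it was CD79A, while MS4A1 and CD22 did not exceed 0.0914 CPM in any library. The 8 T-cell markers summed to 3009 to 3091 CPM with the non-targeting guide, against 2451 to 2532 CPM in DMSO cells. The part of these shifts in the result was not tested. KSRi minus DMSO and non-targeting minus DMSO use the same DMSO libraries, so their values are given side by side without a measure of likeness. PSMA5 changed by -0.50 and -1.03, PSMD1 by -0.36 and -1.94, PSME3 by -0.50 and -1.43, PSMB5 by -0.02 and -1.34, and PSMB9 by 0.39 and -0.16 in KSRi minus DMSO and in non-targeting minus DMSO.

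Of 13 genes for proteins bound to the proteasome without a PSM symbol, 6 fell under KSRi and 1 rose (PAAF1, at 0.30), with a median of -0.18, where 18.7% of all genes fell and 22% rose. Without KSRi replicate 1, 5 fell and 1 rose, where 21.2% and 25.9% of all genes did. UCHL5, a deubiquitinase bound to the 19S particle, had the clearest change, at 74.1 CPM in KSRi cells and 132 CPM in DMSO cells (log2 -0.83, SE 0.08, adjusted p = 7.49e-07). POMP, which matures the core together with the PSMG proteins, changed by -0.36 (SE 0.08), TXNL1 by -0.30 (SE 0.07) and the deubiquitinase USP14 by -0.23 (SE 0.06). In the non-targeting cells relative to DMSO, 10 of the 13 were lower and 1 was higher, where 31.2% and 34.6% of all genes were.

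Among 13 genes of the NFE2L1 axis, 3 fell and 2 rose under KSRi, with or without KSRi replicate 1, and the median was -0.04. Of all genes, 18.7% fell and 22% rose, or 21.2% and 25.9% without that library. The counts are near these shares, so they are no result about the axis, and single genes are given as values. DDI2, the protease that activates NFE2L1, averaged 122 CPM in KSRi cells and 188 CPM in DMSO cells (log2 -0.62, SE 0.07, adjusted p = 1.6e-06). MAFK, a small MAF partner, changed by -0.45 (SE 0.10) and NFE2L2 by -0.32 (SE 0.09). NFE2L1 itself was higher, by 0.23 (SE 0.08, adjusted p = 0.0328), but did not pass when only the KSRi and DMSO libraries were fitted (adjusted p = 0.058), without the low-count filter (adjusted p = 0.0503), or without any 1 of DMSO replicates 1, 2 and 3 and KSRi replicates 2 and 3, with an adjusted p of 0.00134 to 0.127 over all 13 alternatives. NFE2L2 did not pass when only the KSRi and DMSO libraries were fitted (adjusted p = 0.0625) or without DMSO replicate 1, KSRi replicate 2 or KSRi replicate 3, and its adjusted p ran from 0.00022 to 0.0625. Between the controls, 7 of these genes were lower with the non-targeting guide and 3 were higher, where 31.2% and 34.6% of all genes were. DDI2 differed there by -1.53 (SE 0.08) and NFE2L1 by 0.06 (SE 0.09), which did not pass. The axis includes VCP and HCFC1, which have roles far beyond the proteasome.

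Of 13 genes for ubiquitin, its activating enzymes and shuttle factors, 3 fell under KSRi, a count near the 18.7% of all genes that fell, with a median of -0.12. Without KSRi replicate 1, 3 fell and 3 rose, where 21.2% and 25.9% of all genes did. Those that fell with all libraries were UBA6, an activating enzyme, at -0.30 (SE 0.09), and the shuttle factors RAD23B at -0.28 (SE 0.08) and UBQLN4 at -0.22 (SE 0.07). Leaving out 1 library ended each of these calls: UBA6 did not pass without KSRi replicate 3 (adjusted p = 0.0585) or with only the KSRi and DMSO libraries (adjusted p = 0.058), RAD23B without DMSO replicate 1 (adjusted p = 0.0836) or 3 (adjusted p = 0.066), and UBQLN4 without DMSO replicate 1 (adjusted p = 0.0759). Over all 13 alternatives the adjusted p ran from 5.66e-05 to 0.0585 for UBA6, from 0.0018 to 0.0836 for RAD23B and from 0.00495 to 0.0759 for UBQLN4. Of 14 tested genes of antigen processing and interferon gamma signalling, 6 rose and 1 fell, with a median of 0.18, where 22% of all genes rose and 18.7% fell. Without KSRi replicate 1, 8 rose and 1 fell, where 25.9% and 21.2% of all genes did. TAPBP, which loads peptides onto class I molecules with TAP, changed by 0.52 (SE 0.09), NLRC5, the class I transactivator, by 0.49 (SE 0.10), and ERAP1, which trims peptides, by 0.33 (SE 0.07). IRF1, an interferon-responsive factor, fell, at -0.48 (SE 0.07). Between the controls, 11 of the 13 ubiquitin genes were lower with the non-targeting guide, and of the antigen processing genes 5 were lower and 5 were higher. Of all genes, 31.2% were lower and 34.6% were higher, close to the antigen processing counts.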

How the data were processed

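The authors deposited whole-number counts per Ensembl gene for 14 polyA RNA libraries, not normalised. STAR 2.7.11b, DESeq2 1.42.1 and the build GRCh38 are listed in the submitters' processing notes. No source used here gives the counting program, strand setting or annotation release. Library totals ranged from 21710466 to 45897075 counts.

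Counts were fitted with edgeR 4.0.16 in R 4.3.3 (limma 3.58.1): TMM scaling, filterByExpr over the 5 groups, 1 mean per group over all 14 libraries (9 residual degrees of freedom), the quasi-likelihood F test, and Benjamini-Hochberg adjustment over 18963 genes at a threshold of 0.05. CPM use the TMM-scaled totals. The scripts were tested on simulated counts. Positions, lengths and exon overlaps come from GENCODE 29 and promoter windows from RefSeq, which run from 250 bases before to 50 bases after the gene's start.

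Genes were named by rule: the catalytic subunits, PSME, PSMF1, PSMA8 and PSMB11 always, and otherwise the lowest p in each class, list or comparison and the extremes of level. PSMC5, PSMB4 (by library), the genes gained without KSRi replicate 1, PAAF1, PSMD2, PSMD4 and the differences of non-called genes between the controls were named after their values were seen. Under KSRi, PSMA3, PSMD9, PSMD14 and PSMG3 were also named outside the rule. The ratio of PSME1 to PSME2 was not among the ratios planned. The members and lists were chosen with earlier results of these data known. Alternatives were RLE factors, no filter, DESeq2 1.42.0, only the groups compared, the replicate number as a block, each library left out, and, chosen after seeing the data, unscaled totals and upper-quartile factors. Same-numbered libraries deviated together with correlations from -0.18 to 0.11, so the numbers were not taken to pair samples. No 2 libraries were alike within sampling noise. A further marker of the B-cell list is not reported here.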

Additional observations from a re-analysis of the deposited data

How the results depend on the processing

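Of 555 values recomputed for genes named by the rule and called in their comparison, 536 kept their direction and their side of the threshold, 19 kept their direction but did not pass, and 0 reversed. With RLE factors, DESeq2, only the groups compared or the replicate block, the 18 genes called under KSRi were the same. The replicate numbers were not taken to pair the samples. With the replicate number as a block, 1 gene had a higher KSRi effect than guide effect, against 0 without it, as was so with unscaled totals, no low-count filter and upper-quartile factors. Genes higher under KSRi numbered 2 with no filter and with upper-quartile factors. Leaving out 1 library at a time gave 1 to 9 genes higher (9 without KSRi replicate 1, 2 without DMSO replicate 1 or 3) and 15 to 18 lower under KSRi. It gave 0 to 7 genes with a higher and 10 to 16 with a lower KSRi effect than guide effect. It gave 42 to 43 lower with the non-targeting guide than in DMSO. The shares of all genes in the refits of these comparisons are not given here. The guide comparisons stayed at 0 under each alternative run.

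Some uncalled values near 0 under KSRi reversed, and the cause was not tested. PSMA8 was -0.012 with DESeq2, -0.013 with unscaled totals, -0.015 with no filter, -0.010 with only the groups compared and with the block, and -0.011 with RLE factors. PSME1 was -0.012 with DESeq2 and RLE factors, -0.024 with unscaled totals, -0.020 with no filter, -0.013 with only the groups compared and -0.0031 with the block. PSMF1 was -0.0049 with DESeq2, -0.017 with unscaled totals, -0.014 with no filter, -0.0065 with only the groups compared and -0.0050 with RLE factors. PSMB8 was -0.0062 with unscaled totals and -0.0026 with no filter. Leaving out 1 library at a time gave -0.076 to 0.067 for PSMA8, -0.22 to 0.086 for PSMB5, -0.13 to 0.17 for PSMB8, -0.11 to 0.13 for PSME1 and -0.061 to 0.12 for PSMF1.

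At these depths, 3 counts in a library equal 0.0659 to 0.161 CPM, which limits what can be said of PSMB11. The non-targeting group has 2 libraries, and its spread is taken from all groups.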
